A study of Homo sapiens with 2 samples.

Results

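Non-motor proteins that build the mitotic spindle were followed as a set of 10 genes in LNCaP, a line of human prostate carcinoma cells that respond to androgen. The 10 genes were DLGAP5, TPX2, HMMR, NUSAP1, ASPM, FAM83D, CKAP2, CKAP5, SPAG5 and TACC3. They were selected on their role and with their knockdown minus control differences on these same arrays known, and every probe set that the platform annotation gave to exactly 1 of them was used. That was 15 probe sets of 44672 on the arrays, and 10 genes of 17689 with a probe set of their own. RNA came from a control culture transduced with the empty lentiviral vector pLKO.1 and from a KDM4A knockdown culture transduced with a lentivirus that encodes shKDM4A, a short hairpin RNA directed at KDM4A, a histone lysine demethylase. Both were harvested 3 days after infection. The control virus carried no hairpin, and a single knockdown construct was used. Each group had 1 array, so no value has a replicate check, no test was possible, and precision is limited by there being 2 arrays in all.

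The spindle is a bipolar array of microtubules that separates the chromosomes at mitosis. Motor proteins slide and carry its microtubules, while the non-motor proteins described here nucleate, bundle, stabilise or elongate them and hold them at the poles and kinetochores. Most of these proteins are made late in the cell cycle and several are degraded as cells leave mitosis.

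Each deposited value is a probe set's log signal, base 2 by assumption, minus the mean of the 2 arrays. The control and knockdown values of a probe set are therefore equal with opposite sign, and the difference, knockdown minus control, is their distance. This centring removed the signal level, so neither the abundance of a gene nor its detection could be read. The identity of LNCaP cells likewise could not be checked from marker levels. Errors are written ± SD and measure how far the probe sets of a gene lay from each other, which says nothing of the spread between cultures. All probe sets together had a median difference of 0.014 and quartiles of -0.18 and 0.20, and the SD within genes, pooled over all genes with several probe sets, was 0.33. KDM4A itself was 2.26-fold lower in the knockdown, with a difference of -1.18 ± 0.40 (SD, n = 2 probe sets). Its probe sets lay at -0.90 and -1.46, the first of them short of 2-fold.

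The spindle assembly genes divided into strongly lower, moderately lower and level genes. The gene mean lay below 0 for all 10, against 46.3% of all 17689 genes. It was at least 2-fold lower for 7, against a background of 1.44%, and none was 2-fold higher, against 1.16%. At 1.5-fold, 8 members were lower (4.38% of all genes), and at 3-fold, 5 (0.458%). The set was chosen with these differences known, so these counts describe the set and support nothing further. The median difference of the 10 genes was -1.89, against 0.020 over all genes. DLGAP5, HMMR, FAM83D, NUSAP1 and ASPM lay between -4.20 and -2.53, TPX2, SPAG5 and TACC3 between -1.24 and -0.83, and CKAP2 and CKAP5 within 0.05 of 0. In RNA from whole cultures, fewer cells in mitosis and less RNA per cell cannot be told apart.

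**Figure D1:**
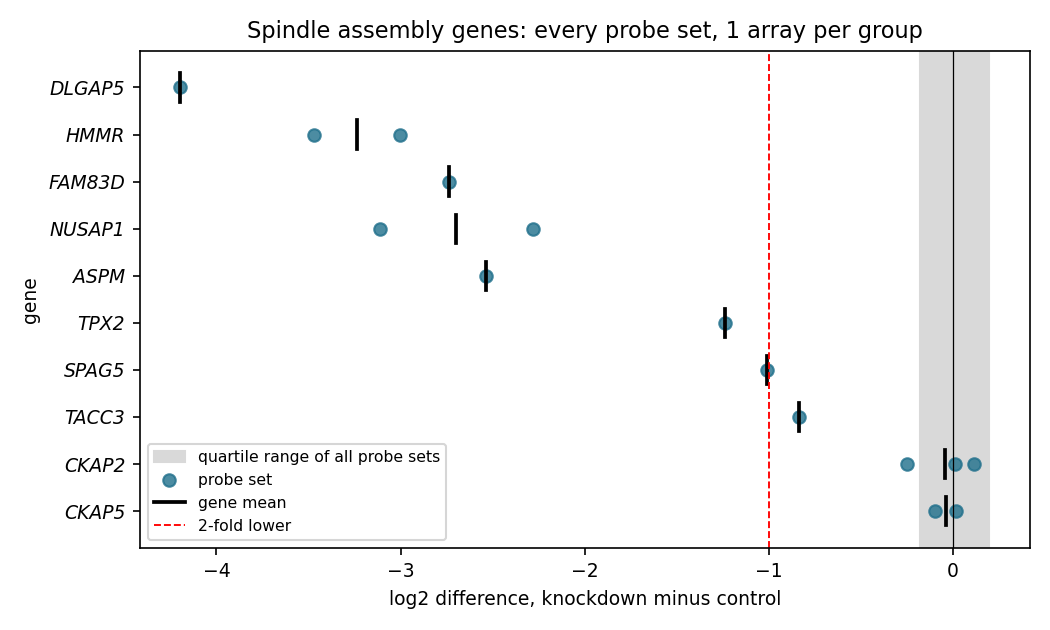
Log2 difference, knockdown minus control, of every probe set (points) of the 10 spindle assembly genes, with the gene mean as a black bar, the range between the quartiles of all probe sets in grey and the 2-fold line dashed. The 5 lowest genes lie between -4.20 and -2.53, and the probe sets of CKAP2 and CKAP5 lie between -0.25 and 0.12.

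DLGAP5, NUSAP1 and TPX2, which bundle, stabilise or nucleate microtubules near the chromosomes, ranged from the lowest member to a moderately lower one. DLGAP5, which binds and stabilises the fibres that attach to kinetochores, read 2.10 in the control array and -2.10 in the knockdown array. It was therefore 18.3-fold lower in the knockdown, the lowest gene mean of all 17689 genes, on a single probe set. That probe set ranked 2 from the lowest of the 34880 probe sets with 1 gene. A probe set of another gene was thus lower, and genes with a single probe set are not averaged. NUSAP1, which cross-links microtubules around chromatin, read 1.56 and 1.14 on its 2 probe sets in the control and -1.56 and -1.14 in the knockdown. It was 6.48-fold lower, with a difference of -2.70 ± 0.59 (SD, n = 2 probe sets), and both of its probe sets were over 4-fold lower, at -3.11 and -2.28. TPX2, which activates Aurora A kinase and promotes microtubule nucleation around chromosomes, read 0.62 in the control and -0.62 in the knockdown. Its single probe set gave a 2.36-fold lower value, rank 146 from the lowest gene and rank 509 from the lowest probe set with 1 gene.

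HMMR and FAM83D, which act together in positioning the spindle, were both among the 11 lowest genes. HMMR, the hyaluronan-mediated motility receptor that also binds microtubules at the spindle pole, averaged 1.62 in the control and -1.62 in the knockdown. Its probe sets differed by -3.47 and -3.00 between the arrays. The mean difference was -3.24 ± 0.33 (SD, n = 2 probe sets), a 9.43-fold lower value, rank 6 from the lowest. FAM83D, which brings a casein kinase to the spindle through HMMR, read 1.37 in the control and -1.37 in the knockdown. That was 6.68-fold lower on 1 probe set, rank 11 among genes and rank 30 among probe sets with 1 gene. ASPM, which gathers microtubule minus ends at the poles and is mutated in inherited microcephaly, read 1.27 in the control and -1.27 in the knockdown. That was 5.79-fold lower on 1 probe set, rank 20 among genes and rank 43 among probe sets with 1 gene.

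SPAG5 and TACC3 lay close to the 2-fold line. SPAG5, also called astrin, which supports the attachment of fibres to kinetochores, read 0.50 in the control and -0.50 in the knockdown. At 2.01-fold lower it was the member nearest the 2-fold line on its lower side. TACC3, which with clathrin bridges the microtubules of a fibre, read 0.42 in the control and -0.42 in the knockdown, 1.78-fold lower and so short of the line. Each rests on 1 probe set, and the values of this pair lay 0.17 apart, under the pooled SD of 0.33.

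CKAP5 and CKAP2 were the 2 members with no clear direction. CKAP5, also called ch-TOG, is the polymerase that adds tubulin to growing microtubule ends in interphase as well as mitosis. Its probe sets read 0.048 and -0.0087 in the control and -0.048 and 0.0087 in the knockdown, so they lay on either side of 0, and its difference was -0.040 ± 0.081 (SD, n = 2 probe sets). CKAP2, a spindle protein that promotes microtubule nucleation and growth, had differences of -0.25, 0.011 and 0.12 on its 3 probe sets. Its mean difference was -0.041 ± 0.19 (SD, n = 3 probe sets), and the median over its probe sets lay on the other side of 0, at 0.011. Another 5 probe sets were annotated to CKAP2 together with immunoglobulin lambda genes and entered no gene value. They ran from -0.15 to 0.38 with a median of -0.020.

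Ordered from the lowest, the genes ran DLGAP5, HMMR, FAM83D, NUSAP1, ASPM, TPX2, SPAG5, TACC3, CKAP2 and CKAP5. The steps from FAM83D to NUSAP1 (0.042), NUSAP1 to ASPM (0.16), TPX2 to SPAG5 (0.23), SPAG5 to TACC3 (0.17) and CKAP2 to CKAP5 (0.0015) were all smaller than this pooled SD, so these neighbours do not differ beyond that spread. The widest step was between ASPM and TPX2, at 1.30, followed by DLGAP5 to HMMR at 0.96 and TACC3 to CKAP2 at 0.79. Of the 10 genes, 6 rest on 1 probe set. Of the 15 probe sets, 12 lay below 0 and 9 were at least 2-fold lower, against 46.7% and 2.39% of the 34880 probe sets with 1 gene. The 3 probe sets above 0 belonged to CKAP2 and CKAP5.

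Promoters are shown because the members' differences ranged so widely, and late cell cycle genes are known for promoters that pair CCAAT boxes, bound by NF-Y, with a cell cycle genes homology region (CHR), bound by the DREAM complex and by MYBL2 with FOXM1. Promoter sequences came from RefSeq (GRCh38.p14), which matched 8 of the 10 genes; TPX2 and FAM83D were not matched. Below are the 250 bases before the annotated start, 5′ to 3′ on the gene's strand, of 4 strongly lower genes and of CKAP5. Capitals mark CCAAT or its reverse complement ATTGG, and TTTGAA, a CHR-type match, or its reverse complement TTCAAA. The stretches are chr14:55191586-55191835 (minus strand) for DLGAP5, chr5:163460382-163460631 (plus strand) for HMMR, chr15:41332631-41332880 (plus strand) for NUSAP1, chr1:197146670-197146919 (minus strand) for ASPM and chr11:46846281-46846530 (minus strand) for CKAP5.
DLGAP5: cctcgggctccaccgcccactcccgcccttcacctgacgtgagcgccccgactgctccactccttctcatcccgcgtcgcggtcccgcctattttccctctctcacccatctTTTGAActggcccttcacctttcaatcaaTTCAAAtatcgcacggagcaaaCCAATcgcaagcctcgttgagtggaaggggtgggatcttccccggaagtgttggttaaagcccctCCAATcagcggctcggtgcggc
HMMR: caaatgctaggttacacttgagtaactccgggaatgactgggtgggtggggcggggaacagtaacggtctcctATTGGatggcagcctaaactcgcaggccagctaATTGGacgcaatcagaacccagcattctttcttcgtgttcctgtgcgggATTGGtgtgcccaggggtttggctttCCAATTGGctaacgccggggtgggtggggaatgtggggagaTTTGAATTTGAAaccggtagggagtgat
NUSAP1: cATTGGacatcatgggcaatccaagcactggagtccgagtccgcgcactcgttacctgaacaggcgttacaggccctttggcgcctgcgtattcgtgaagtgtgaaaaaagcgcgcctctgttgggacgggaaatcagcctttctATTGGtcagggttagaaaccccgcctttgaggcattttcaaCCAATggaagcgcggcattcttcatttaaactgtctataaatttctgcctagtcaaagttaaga
ASPM: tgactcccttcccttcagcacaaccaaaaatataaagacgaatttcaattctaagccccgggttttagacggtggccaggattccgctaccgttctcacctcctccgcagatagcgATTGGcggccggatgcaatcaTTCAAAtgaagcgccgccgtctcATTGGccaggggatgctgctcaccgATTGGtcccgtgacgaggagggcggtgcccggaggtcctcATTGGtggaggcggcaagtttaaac
CKAP5: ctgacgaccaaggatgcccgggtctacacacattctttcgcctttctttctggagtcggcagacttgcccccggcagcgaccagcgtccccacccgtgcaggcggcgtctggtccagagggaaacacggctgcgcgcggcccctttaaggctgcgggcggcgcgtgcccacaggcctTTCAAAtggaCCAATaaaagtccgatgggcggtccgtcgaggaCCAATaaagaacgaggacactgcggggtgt

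The letters CCAAT were searched on both strands, as were TTTGAA and TTCGAA for the CHR and TTTCGCGC, TTTGGCGC, TTTCCCGC and TTTGGCGG for E2F-type sites. In the 250 bases before the start, CCAAT was present in 5 of the 8 members, DLGAP5, HMMR, NUSAP1, ASPM and CKAP5, against 33.0% of 27305 promoters. All 5 held 2 or more matches, which 10.0% of promoters did. A CHR-type match was present in DLGAP5, HMMR, ASPM and CKAP5, against 14.6% of promoters, and these 4 also held CCAAT, against 5.24%. In HMMR, a CCAAT on one strand overlaps another on the opposite strand, and its TTTGAA matches are adjacent, the nearest base lying 17 bases before the start. In the 50 bases after the start, a CHR-type match began at base 4 in DLGAP5 and in SPAG5, at base 14 in NUSAP1 and at base 18 in CKAP5. NUSAP1 held the members' single E2F-type match, TTTGGCGC, against 2.91% of promoters. None of these letters were found in the windows of TACC3 and CKAP2. A match is a description of sequence. CKAP5, with a difference of -0.040, held CCAAT and CHR-type matches as did DLGAP5, with -4.20, while CKAP2, with -0.041, held neither. Whether these letters bear on the differences was not tested.

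**Figure D2:**
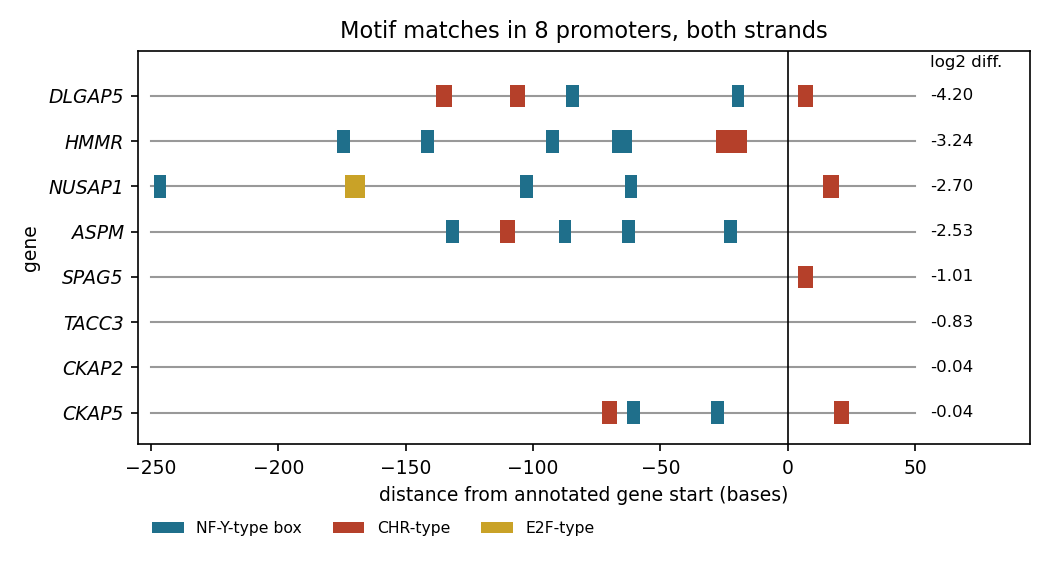
Positions of NF-Y-type (CCAAT), CHR-type and E2F-type matches on both strands in 8 promoters, as the distance in bases from the annotated gene start, with the log2 difference of each gene at the right. DLGAP5 and CKAP5 both hold NF-Y-type and CHR-type matches at differences of -4.20 and -0.04.

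RNA differences were also read for 15 genes whose proteins are known to bind the members or to regulate them. No protein was measured, and the genes were named for these known ties after the values had been seen. Of these, 11 lay below 0, against 46.3% of all genes, and 3, KIF11, KIF15 and BRCA1, were at least 2-fold lower, against 1.44%. AURKA, the kinase that TPX2 activates, lay at -0.72 ± 0.74 (SD, n = 3 probe sets), with probe sets from -1.30 to 0.11. KIF15, the motor that TPX2 recruits, lay at -1.35, and KIF11, a motor that forms a complex with DLGAP5, at -2.31, each on 1 probe set. CLTC, the clathrin heavy chain that joins TACC3 and CKAP5 on spindle fibres, lay at 0.17. GTSE1, a further partner of that complex, lay at -0.85 ± 0.87 (SD, n = 5 probe sets), with probe sets from -2.08 to 0.091. The complex of TACC3, CKAP5 and clathrin thus held 1 gene that was 1.78-fold lower and 2 within 0.2 of 0.

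CSNK1A1, the casein kinase that FAM83D and HMMR bring to the spindle, lay at -0.56 ± 0.50 (SD, n = 13 probe sets). Its probe sets ran from -1.27 to 0.28. KIF22, a motor bound by FAM83D, lay at -0.25 ± 0.53 (SD, n = 2 probe sets), with probe sets at -0.62 and 0.12. BRCA1, which regulates HMMR, lay at -1.20 ± 0.76 (SD, n = 2 probe sets). The probe sets of BRCA1 lay at -1.74 and -0.66, the second of them short of 2-fold. The pole proteins that work with ASPM lay near 0, with WDR62 at 0.025 ± 0.18 (SD, n = 2 probe sets), CDK5RAP2 at -0.093 ± 0.067 (SD, n = 3 probe sets) and KATNA1, the severing enzyme katanin, at -0.13. KNSTRN, the partner of SPAG5 at kinetochores, lay at 0.24. The importins that hold NUSAP1 and TPX2 inactive away from chromatin lay at 0.46 ± 0.061 for KPNA2 (SD, n = 2 probe sets) and -0.19 ± 0.25 for KPNB1 (SD, n = 6 probe sets), and RAN, the GTPase that releases them, at -0.21 ± 0.36 (SD, n = 2 probe sets).

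**Figure D3:**
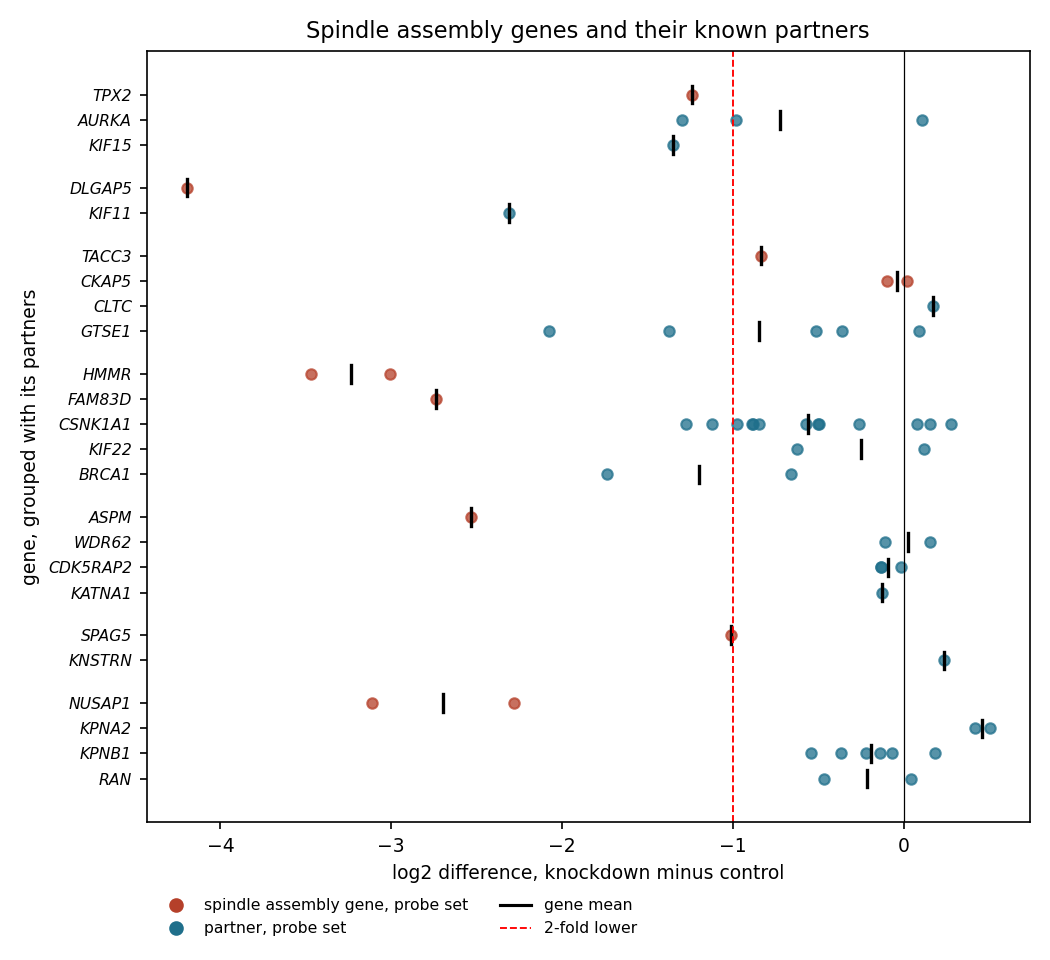
Log2 difference, knockdown minus control, of every probe set (points) of 9 spindle assembly genes (red) and of 15 genes whose proteins bind them or regulate their release (blue), with gene means as black bars and the 2-fold line dashed. KIF11, KIF15 and BRCA1 lie past the line, and the means of CLTC, KNSTRN, KPNA2 and WDR62 lie above 0.

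Of the members' paralogues, 12 were measured, with a median of 0.057, and 5 lay below 0, against 46.3% of all genes. None reached 2-fold in either direction, against 1.44% of all genes lower and 1.16% higher. TACC1 lay at 0.54 ± 0.29 (SD, n = 4 probe sets) and TACC2 at 0.0032 ± 0.13 (SD, n = 4 probe sets), beside -0.83 for TACC3. CKAP2L, a spindle protein related to CKAP2, was the lowest of them at -0.41 on 1 probe set. DLGAP2, DLGAP3 and DLGAP4, of a family of synaptic scaffold proteins, lay at -0.16, -0.0088 and -0.11, beside -4.20 for DLGAP5. The 6 measured relatives of FAM83D lay between -0.24 (FAM83H) and 0.21 (FAM83G), with FAM83C at 0.18, FAM83F at 0.16, FAM83E at 0.12 and FAM83A at 0.11.

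Among other microtubule genes, the mitotic kinesins came closest to the members. All 13 lay below 0, against 46.3% of all genes, and 7 were at least 2-fold lower, against 1.44%. Their median was -1.18, and the lowest were KIF20A (-3.13), KIF11, KIF2C (-2.17 ± 0.64, SD, n = 2 probe sets) and CENPE (-2.16). The 15 genes read above for their known ties are counted again here, so these counts overlap. KIF11, KIF15 and KIF22 are among the kinesins, and the others, BRCA1 included, are in the next list. Partners and regulators of the members had 5 of 27 measured genes at least 2-fold lower, against 1.44% of all genes. The lowest were CDC20 (-2.80), which activates the ubiquitin ligase of anaphase, PRC1 (-1.76), a bundler of the central spindle, CCNB1 (-1.42 ± 0.094, SD, n = 2 probe sets), the mitotic cyclin, and the kinase PLK1 (-1.22). The median of this list, -0.25, turned to 0.057 over 19 genes when probe sets whose names end in _s_at or _x_at, which may match more than 1 transcript, were left out.

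The nucleation machinery lay nearer 0. Of 19 measured genes of the gamma-tubulin ring and augmin, 1 was at least 2-fold lower, against 1.44% of all genes. The median was -0.085. MZT1, a small subunit of the ring, was that gene (-1.20), followed by TUBG1, gamma-tubulin itself, at 0.71, CEP57 at -0.59 ± 0.21 (SD, n = 5 probe sets) and TUBG2 at 0.51. The next list held 29 genes labelled as microtubule-associated proteins of interphase cells, a label that does not exclude a role in mitosis. No gene mean reached 2-fold in either direction, against 1.44% of all genes lower and 1.16% higher. Single probe sets did, in MAPRE3 (1.33), CAMSAP2 (1.03), MAP1A (1.01) and EML4 (-1.24). Of the 29 genes, 25 had 2 or more probe sets, against 4 of the 10 members, so averaging entered this list more often. On this list 20 gene means lay above 0, against 9494 of all 17689 genes, and the median was 0.086. The end-binding proteins MAPRE1 (0.90 ± 0.089, SD, n = 2 probe sets), MAPRE3 (0.75 ± 0.65, SD, n = 4 probe sets) and MAPRE2 (0.64 ± 0.077, SD, n = 2 probe sets) were the highest of that list, and MTUS1 was the lowest at -0.59 ± 0.19 (SD, n = 4 probe sets).

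**Figure D4:**
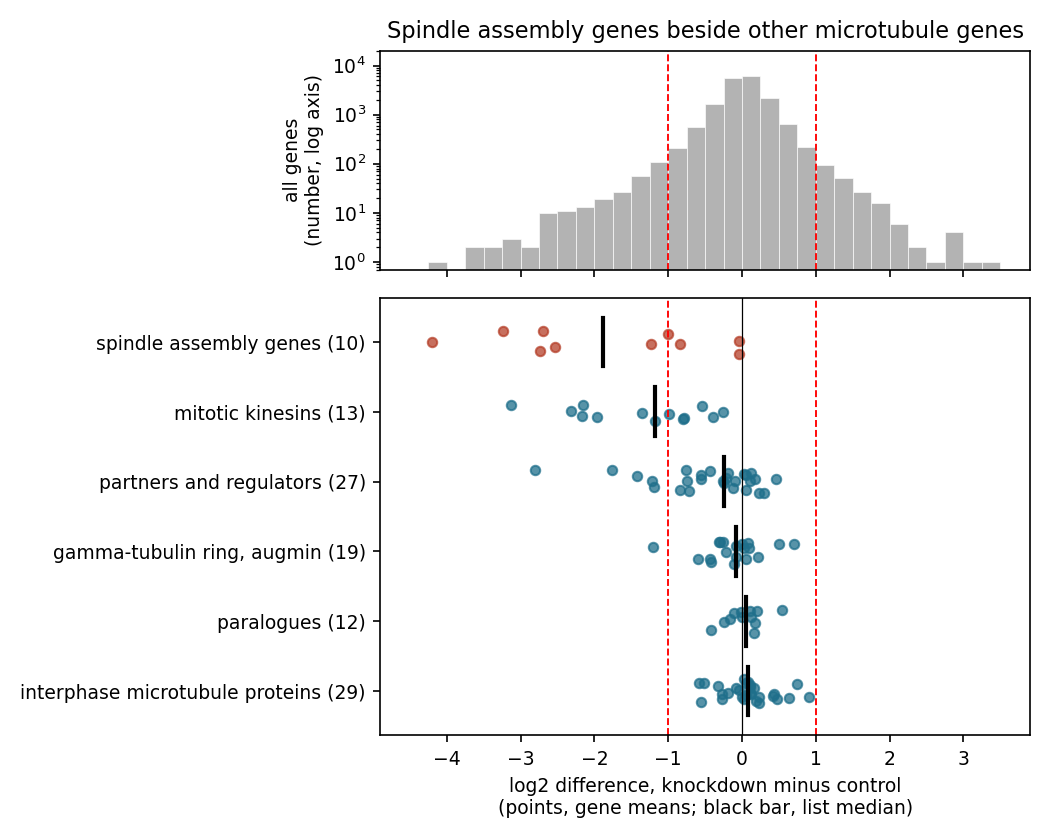
Upper panel, number of genes (log axis) by log2 difference, knockdown minus control; lower panel, gene means (points) and list medians (black bars) of the spindle assembly genes and 5 other lists, with the number measured in brackets and 2-fold lines dashed. The medians run from -1.89 for the spindle assembly genes and -1.18 for mitotic kinesins to 0.086 for the list labelled interphase, a label that does not exclude a role in mitosis.

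With 2 arrays, the likeness of other genes to the set could be measured only by their difference. Outside these lists, the 4 genes with 2 or more probe sets whose mean lay nearest the members' median were CENPF (-1.88 ± 0.37, n = 2 probe sets), a kinetochore protein, PYROXD1 (-1.88 ± 0.065, n = 2 probe sets), an oxidoreductase, CDKN3 (-1.86 ± 0.22, n = 2 probe sets), a phosphatase of cyclin-dependent kinases, and PTER (-1.86 ± 0.35, n = 2 probe sets). They lay within 0.03 of it on the log2 scale.

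Cell type markers were set beside the members. No gene mean reached 2-fold among 7 luminal prostate genes (median 0.11), 4 basal genes (-0.016) or 5 genes of the embryonic kidney line behind the packaging cells (-0.010). A probe set of the luminal gene KLK2 did, at 1.30. Of 7 stromal genes (median 0.15), ACTA2 reached it as a mean, at 2.14 ± 2.42 (SD, n = 2 probe sets), with its probe sets at 0.43 and 3.85. The highest probe sets of COL1A1 (1.57) and COL3A1 (1.30) also passed 2-fold, while their means did not. Of all genes, 1.16% were at least 2-fold higher. The control probe sets at the 3′ and 5′ ends of transcripts, which track RNA integrity, gave a 3′ minus 5′ contrast that differed by -0.12 between the arrays for ACTB and by -0.097 for GAPDH. The part of these in the members' values was not tested.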

How the data were processed

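RNA of 2 LNCaP cultures, 1 per group, was hybridised to Affymetrix Human Genome U133 Plus 2.0 arrays from 3 µg of total RNA. The authors deposited values taken here as log2, for which the submitters' processing notes name RMA without a version. In every row the 2 values summed to 0 within 1e-06, so each is centred on the mean of both arrays. How values were centred, their log base and any earlier filter were not given in the sources used here. Base 2 was assumed, as RMA uses it, and folds depend on this.

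The platform annotation named the genes, with Entrez identifiers matched to RefSeq for 34839 of 34880 probe sets with 1 gene. A gene's difference is the mean over these. Another 1619 probe sets with several genes and 8131 unnamed here entered no gene value. Genes were counted by a size rule of 2-fold, which is not a test, with no filter on dim probe sets.

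The members and lists were chosen with earlier results of these data known. Named genes were KDM4A, all members, their paralogues, up to 4 genes per list by size of difference and the 4 nearest genes; binding partners were added afterwards. Alternatives were other probe sets, centring, summaries and size rules. Scripts were tested on simulated data and run in Python 3.11.15 with numpy 2.4.6 and pandas 2.3.3. No build is named for the arrays, so coordinates are given only for RefSeq promoters.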

Additional observations from a re-analysis of the deposited data

How the results depend on the processing

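Restricted to HMMR, NUSAP1, CKAP2 and CKAP5, the 4 genes that have at least 2 probe sets, 2 genes were at least 2-fold lower and the median was -1.37, against 7 of 10 and -1.89 in all; fewer genes enter by construction. Leaving out probe sets with names ending in _s_at or _x_at removed TPX2 and ASPM, gave 5 of 8 genes at least 2-fold lower, and moved NUSAP1 to -3.11. It also moved the median of the mitotic kinesins to -2.06 over 8 genes. A 1.5-fold rule counted 8 members and a 3-fold rule 5, against 4.38% and 0.458% of all genes. Of 38 values of single members under other settings, 37 stayed within the pooled SD between probe sets, but most of them could not leave it. Subtracting the median shifted every value by the same 0.014. The median over probe sets and the added probe sets of several genes could change only CKAP2. The count therefore says little about stability. CKAP2, near 0, lay at 0.011 with the median over probe sets and at 0.0053 with probe sets of several genes added. KDM4A ran from -1.46 to -1.18 over its settings, none of which left its probe set at -0.90 alone. No paired analysis was possible because each group had 1 array. Leaving out a replicate was likewise not possible, and signal over background could not be read after centring.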
